A study of Mus musculus with 4 samples.

Results

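Of the 43258 autosomal regions bound by Tfcp2l1 in both repeats of a ChIP-seq experiment in mouse embryonic stem cells, 12355 (28.6%, exact 95% binomial interval 28.1 to 29.0%) lay deep inside long protein-coding genes. Such a region was a peak of repeat 1 that overlapped a peak of repeat 2 by at least 1 bp. Its summit in repeat 1 lay within a protein-coding gene and more than 10 kb from the start and the end of every protein-coding gene of the RefSeq annotation (GRCm38.p6). These 12355 regions are called members below. The choice used position and overlap, and no enrichment value.

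Chromatin was taken from untreated wild-type embryonic stem cells of the mouse. Their medium held the cytokine LIF at 1000 units/mL together with the GSK3 inhibitor CHIR99021 at 3 µM and the MEK inhibitor PD0325901 at 1 µM. For each of 2 repeats a ChIP library, made with 10 µg of a custom antibody against Tfcp2l1, was paired with an input library of chromatin that was not immunoprecipitated. Both repeats carried the same genotype and medium, so no condition was varied. The labels do not say whether the repeats were separate cultures, and the spread between them may be technical. Filtered ChIP libraries held 19353473 and 22555373 tags, from which the authors called 57614 and 51610 peaks. Where values come in pairs, repeat 1 precedes repeat 2. All fold enrichments over input are the authors' value for each peak. Intervals are exact 95% intervals that cover counting error only.

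Tfcp2l1 belongs to the grainyhead/CP2 family of transcription factors. In the mouse it acts downstream of LIF and Stat3 and helps to keep embryonic stem cells in the naive state, together with factors such as Esrrb and Klf4. Proteins of the CP2 branch bind DNA at a pair of short direct repeats, and many transcription factors bind within introns, where regulatory elements and alternative promoters are found.

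The Tfcp2l1 motif is a pair of the words CCAG or CCGG in the same direction with any 6 bases between them. All 4 combinations (CCAG with CCAG, CCAG with CCGG, CCGG with CCAG, CCGG with CCGG) were searched on both strands, the last of which reads the same on either strand, and overlapping matches were kept. Sequence was at hand only in windows of 300 bases at annotated starts, so the stretches below come from members whose summits lie in such a window at a start buried inside a host gene. They are the 6 strongest, by mean rank of enrichment, among members with a motif upstream of such a start, and they show matches to the motif in their surroundings. Each line gives 94 bases of RefSeq sequence (GRCm38.p6), 5′ to 3′ on the strand of the start named, with the motif in capitals and 40 bases on either side.
Palld, chr8:61591212-61591305, minus strand: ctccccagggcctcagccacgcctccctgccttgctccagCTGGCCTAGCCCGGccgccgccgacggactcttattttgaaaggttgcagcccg
Arap1, chr7:101394212-101394305, plus strand: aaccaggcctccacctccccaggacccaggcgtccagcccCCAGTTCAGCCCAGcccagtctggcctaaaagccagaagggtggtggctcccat
Dab2ip, chr2:35691777-35691870, plus strand: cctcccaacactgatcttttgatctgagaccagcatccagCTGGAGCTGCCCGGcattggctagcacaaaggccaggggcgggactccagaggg
Dlgap4, chr2:156720747-156720840, plus strand: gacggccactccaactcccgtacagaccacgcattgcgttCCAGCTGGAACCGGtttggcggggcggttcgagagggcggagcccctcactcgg
Tbc1d22bos inside Tbc1d22b, chr17:29596460-29596553, minus strand: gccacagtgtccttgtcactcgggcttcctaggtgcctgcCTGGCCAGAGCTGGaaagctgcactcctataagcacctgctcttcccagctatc
Clybl, chr14:122181572-122181665, plus strand: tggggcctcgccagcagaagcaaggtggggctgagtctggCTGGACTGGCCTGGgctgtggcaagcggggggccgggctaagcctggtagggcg

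These 6 regions were among the strongly enriched ones. The Palld region, inside the gene of an actin-bundling protein, reached 102.42-fold and 67.31-fold, with 288 and 261 tags. The Arap1 region, in a gene for an Arf GTPase-activating protein, reached 87.69-fold and 64.29-fold, with 340 and 353 tags. The Dab2ip region, in a gene for a Ras GTPase-activating protein, reached 99.85-fold and 56.9-fold. All 3 were stronger in repeat 1 than in repeat 2 by the fold measure. The Dlgap4 region differed more between the repeats, with 111.5-fold and 43.56-fold enrichment from 319 and 169 tags. The Tbc1d22b region, at the start of an lncRNA gene, had 71.21-fold and 48.33-fold enrichment, and the Clybl region 83.1-fold and 30.61-fold. Summits lay 22.5 to 90.5 bp from the centre of the motif in these 6 regions.

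Members were bound about as strongly as shared peaks elsewhere. Median enrichment was 14.98-fold and 11.77-fold at members, against 15.46-fold and 11.77-fold at the other 30903 autosomal shared peaks. Among members, enrichment spanned 3.76-fold to 174.89-fold (repeat 1) and 3.57-fold to 127.15-fold (repeat 2), with quartiles of 9.69 and 26.89 and of 7.86 and 20.41. The quartile ranges of members and other shared peaks, 10.01 to 28.02 and 7.85 to 20.41, overlapped almost wholly. Enrichment of at least 10-fold in both repeats was found at 6763 members (54.7%, 53.9 to 55.6%), against 55.4% of the other shared peaks and 55.2% of all. Enrichment of at least 50-fold in both was found at 551 members (4.46%, 4.10 to 4.84%), against 4.57% of the others and 4.54% of all.

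Set against single classes of position, members sat between the peaks at gene ends and those in gene deserts. Shared peaks within 1 kb of a gene end had medians of 17.16-fold and 11.77-fold (n = 6063), and those more than 100 kb from any gene 13.53-fold and 10.99-fold (n = 2802). The order was clearer in repeat 1 than in repeat 2, where the gene-end and member medians were the same. This place was not particular to members. Intergenic shared peaks 10 to 100 kb from a gene end had the same medians as members, 14.98-fold and 11.77-fold (n = 8665). Shared peaks 1 to 10 kb from a gene end had 15.46-fold and 11.92-fold (n = 13373). Median tags per peak were 56 and 56 at members, 72 and 58 at gene ends and 46 and 50 beyond 100 kb. The ratio of repeat 1 to repeat 2 enrichment had a median of 1.29 at members and 1.44 at gene ends. Gene-end peaks were thus relatively stronger in repeat 1, and the part of the difference between libraries in this was not tested. Peaks just inside the 10 kb limit (10 to 11 kb, n = 490) had medians of 14.98-fold and 11.3-fold, and those just outside it (9 to 10 kb, n = 533) 15.73-fold and 12.5-fold. The nearest on either side were a member in Dennd2a at 10005 bp (17.47-fold and 16.48-fold) and a shared peak in Gm7592. The latter lay 10000 bp from the nearest gene end (21.79-fold and 16.34-fold).

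Deep intragenic peaks recurred about as often as others. Of the 16022 deep intragenic peaks of repeat 1, 12355 overlapped a repeat 2 peak (77.1%, 76.5 to 77.8%), against 76.1% (75.7 to 76.5%) of the other autosomal peaks and 76.4% of all. In the weakest quintile of repeat 1 peaks by enrichment the share was 43.5% deep inside genes and 40.04% elsewhere, and in the strongest quintile it was 99.9% in both. Read from repeat 2, 83.7% of deep intragenic peaks recurred, against 85.4% of the others, so the small difference had opposite directions in the 2 readings. For the 11821 members that matched one peak to one peak, enrichment in the repeats had a Spearman correlation of 0.816 across regions, which share their libraries and are not replicates. The matched summits were a median of 27 bp apart, and 91.5% of them lay within 100 bp of each other.

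**Figure D1:**
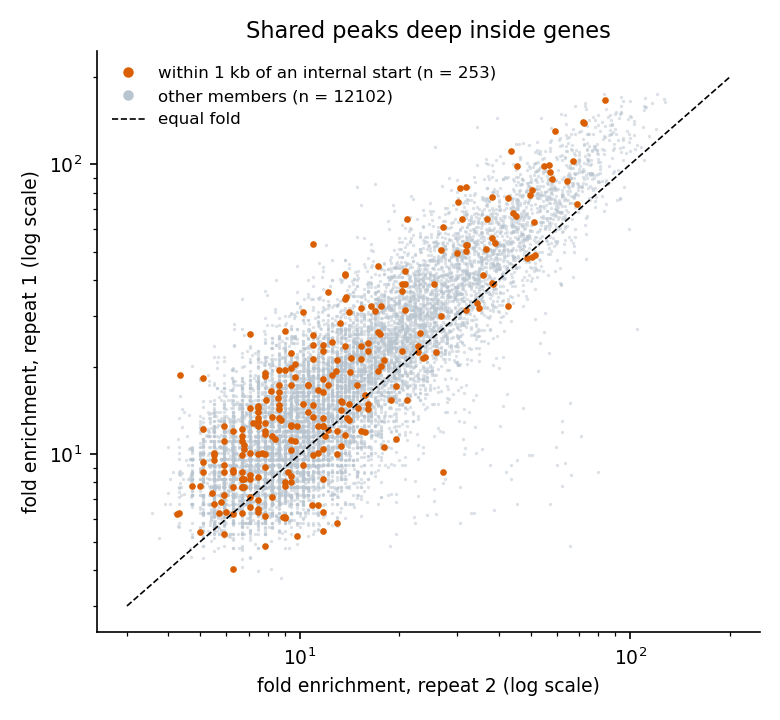
Fold enrichment over input (log scales) of every member in repeat 1 (vertical) and repeat 2 (horizontal); orange points lie within 1 kb of an annotated protein-coding start inside the host gene, grey points are the other members (starts on chromosome 18 were not at hand), and the dashed line marks equal fold. Most points lie above the line, as the median ratio of 1.29 gives, and the orange points reach 167.16-fold in repeat 1 and 83.75-fold in repeat 2.

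The strongest members lay in genes of varied function. A region in Smchd1, which encodes a chromatin protein of X inactivation, reached 174.89-fold and 120.87-fold with 580 and 561 tags (chr17:71443748-71445393, 30.9 kb from the nearest gene end). A region in Esrrb, the nuclear receptor of the naive pluripotency network, reached 167.75-fold and 126.75-fold with 569 and 536 tags (chr12:86503204-86505341). These 2 regions differed little from each other. A region in Xxylt1, a xylosyltransferase gene that acts on Notch glycans, followed with 164.26-fold and 127.15-fold, and one in Eri3 with 162.99-fold and 116.79-fold. The next by mean rank were in Cep128 (a centriole protein), 1110051M20Rik, Clic6 (a chloride channel family member), Bicra (a subunit of a BAF remodelling complex), Gpr107 and Yap1 (the Hippo coactivator). These 6 lay between 153.71-fold and 169.09-fold by repeat 1, and between 100.07-fold and 111.45-fold by repeat 2. Such regions could stand alone or in company: Clic6 held 1 member and Smchd1 held 3, whereas Esrrb held 16.

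The deep part of genes, meaning all positions inside a protein-coding gene and more than 10 kb from every gene end, measured 702 Mb over the 19 autosomes. Members fell there at 17.6 per Mb (17.3 to 17.9). The median member lay 31.3 kb from the nearest gene end (quartiles 17.6 and 60.3 kb), and 1447 members (11.7%) lay over 100 kb away. The farthest lay 1014 kb from any gene end, in Cntnap2, which encodes a neurexin-family adhesion protein, with 6.5-fold and 5.49-fold enrichment from 30 and 38 tags. The next were in Ptprd at 901 kb (19.32-fold and 15.3-fold), again in Cntnap2 at 771 kb (18.2-fold and 18.44-fold), in Nrxn3 at 759 kb (16.91-fold and 16.48-fold) and in Macrod2 at 740 kb (8.21-fold and 8.63-fold). Of these 5, 3 were above the members' median in both repeats and 2 were below it in both. Of the members, 4391 (35.5%) lay within 5 kb of another, and the median distance to the nearest other member, on either side, was 9.12 kb. The same values for the other shared peaks are not given here, so this is no trait particular to members.

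Density depended on the length of the gene. Members numbered 30.2 per Mb of deep DNA (28.8 to 31.7) in genes of 20 to 50 kb, 25.9 in genes of 50 to 100 kb and 23.8 in genes of 100 to 200 kb. Above that length the density was lower at each step, with 14.9 per Mb in genes of 200 to 500 kb, 7.23 (6.73 to 7.77) in genes of 500 to 1000 kb and 3.37 (2.96 to 3.83) in the 55 genes over 1000 kb. The intervals of the 6 classes did not overlap. Each repeat alone gave the same order, with 38.6 and 34.99 peaks per Mb in the shortest class and 4.95 and 4.31 per Mb in the longest. Enrichment differed much less, with medians of 14.99-fold and 11.77-fold in the shortest class and 13.2-fold and 11.3-fold in the longest. Longer genes, which have more deep DNA each, still held a member more often: 23.9% of the genes of 20 to 50 kb had one, and 90.9% of those over 1000 kb.

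**Figure D2:**
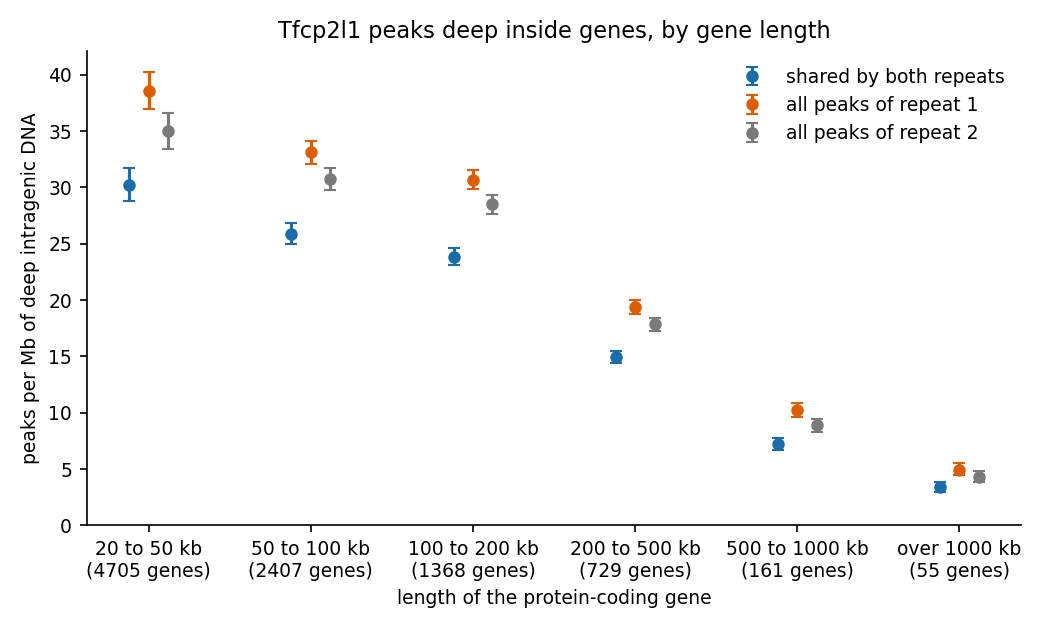
Peaks per Mb of deep intragenic DNA (vertical axis, from 0) in 6 classes of gene length, for peaks shared by both repeats (blue) and for all deep peaks of repeat 1 (orange) and repeat 2 (grey); bars are exact 95% Poisson intervals. All 3 sets fall in the same order, for shared peaks 30.2 per Mb in the shortest class and 3.37 per Mb in the longest.

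The difference by length was also present at a fixed distance from the gene end. Over all genes the density was 25.7 members per Mb at 10 to 20 kb from an end. At that same distance, it was 30.1 per Mb (28.6 to 31.7) in genes of 20 to 50 kb, 24.5 in genes of 100 to 200 kb, 16.6 (14.7 to 18.7) in genes of 200 to 500 kb, 7.75 (5.30 to 10.9) in genes of 500 to 1000 kb and 6.29 (2.87 to 11.9) in genes over 1000 kb, the last from 9 members. Genes under 100 kb were denser than genes over 500 kb on 19 of 19 autosomes. Gene length goes with base composition, mappability and expression, none of which could be measured here, and their part in the difference was not tested.

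Each gene was divided at its midpoint into a start side and an end side. The start side was slightly denser over all genes, and the order was turned round in the longest genes. Among genes with a known strand, which cover 81.1% of the members off chromosome 18, the start side held 18.4 members per Mb (17.8 to 18.9) and the end side 17.1 (16.6 to 17.6). The ratio of start side to end side was 1.08, but 0.951 for members over 50 kb from every end and 0.990 for members with an FDR of 0 in both repeats. Within the class of 50 to 100 kb the values were 27.6 in the start side and 23.4 in the end side. In genes of 500 to 1000 kb the order was the other way, with 6.04 per Mb (5.32 to 6.83) in the start side and 8.79 (7.91 to 9.73) in the end side, and in genes over 1000 kb it was 2.45 and 3.88. Etl4 alone gave 5 members to the start side and 32 to the end side. Without it the ratio of start side to end side in genes over 500 kb was 0.713, against 0.675 with it. Of 141 such genes with members, 50 had more in the start side, 73 had more in the end side and 18 were even.

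Of the 9425 autosomal genes with any deep DNA, 4136 (43.9%) held a member. A host gene held a median of 2, 1777 hosts held 1, and 198 hosts held at least 10. Those 198 genes together held 2840 members, 23.0% of all. Most members were in Msi2, which encodes an RNA-binding Musashi protein, with 38 along its 379 kb (46 and 49 peaks in the repeats taken alone). Most of the Msi2 regions were weak, with medians of 9.60-fold and 10.1-fold, below those of all members, and the highest had 62.43-fold enrichment in repeat 1. Etl4 followed with 37 members, Dst (a giant linker of the cytoskeleton) with 36, Gse1 with 33, and Rnf220 (a ubiquitin ligase) and Myo10 (a myosin of filopodia) with 27 each. The Dst regions were stronger than the Msi2 ones, with medians of 20.045-fold and 15.9-fold and a strongest one of 127.54-fold and 90.65-fold. Sh3pxd2a, a scaffold of invadopodia, and the transcriptional regulators Camta1 and Zfhx3 had 26 each, and Tns3, a tensin of focal adhesions, had 25. Where ends of genes of any type, lncRNA genes included, also set the 10 kb limit, Sh3pxd2a held 16 and Camta1 15.

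**Figure D3:**
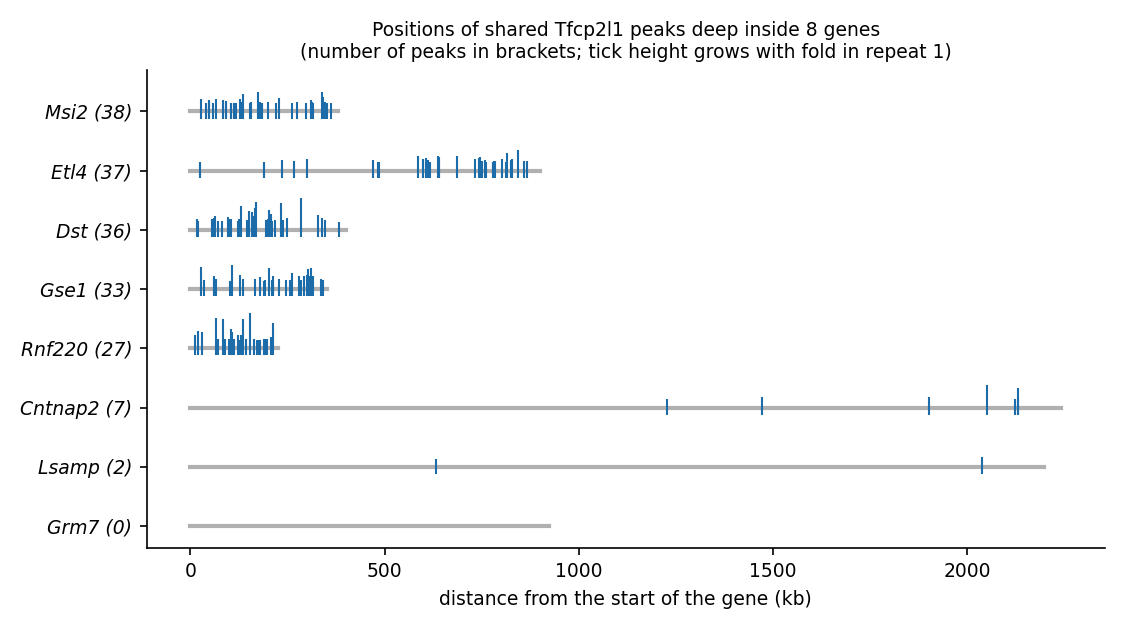
Position of each member (blue ticks, height growing with fold enrichment in repeat 1) along 8 genes drawn to scale in kb from the gene's start, with the number of members in brackets; the grey line is the gene. Msi2 (38 members), Dst (36) and Gse1 (33) carry members along their whole deep part, most of the 37 in Etl4 lie in its end side, and Cntnap2 holds 7, Lsamp 2 and Grm7 none along longer stretches.

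Density per unit of length was ranked among genes with at least 3 members and 50 kb of deep DNA. Ptprf, which encodes a receptor tyrosine phosphatase of the LAR group, held 12 members (189.9 per Mb of deep DNA), Gtf2ird1 (a TFII-I family factor) 15 (189.4 per Mb) and Spred2 (an inhibitor of Ras to ERK signalling) 15 (188.5 per Mb). Tnrc18, Tpd52, Zmynd8, Ppp2r5c, Fnbp1, Myo10 and Rbpms followed, the last with 20 members and 157.1 per Mb. Density chose these 10 genes, so their rank is a description. With ends of genes of any type, Ptprf held 3 members, Tnrc18 9 and Ppp2r5c 12. At the other end were the longest genes. Ptprd (2271 kb) held 4 members and Cntnap2 (2241 kb) 7 (2 in each with ends of genes of any type), and Lsamp, Lrp1b and Macrod2 held 2 each. With shared ones included, repeat 1 had 6 peaks in Lsamp, 3 in Lrp1b and 5 in Macrod2, and repeat 2 had 3, 2 and 3. The 4 members of Ptprd included strong ones, up to 51.69-fold and 56.9-fold, whereas those of Macrod2 did not pass 8.70-fold and 8.63-fold. The largest genes without a deep peak in either repeat were Sgcz (a sarcoglycan, 1144 kb), Agbl1, Lrrtm4 (a synaptic adhesion protein), Mdga2 and Mgat4c. Not all giant genes were sparse, since Pde4d (1302 kb, a cAMP phosphodiesterase) held 20 and Auts2 (1106 kb) held 19.

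**Figure D4:**
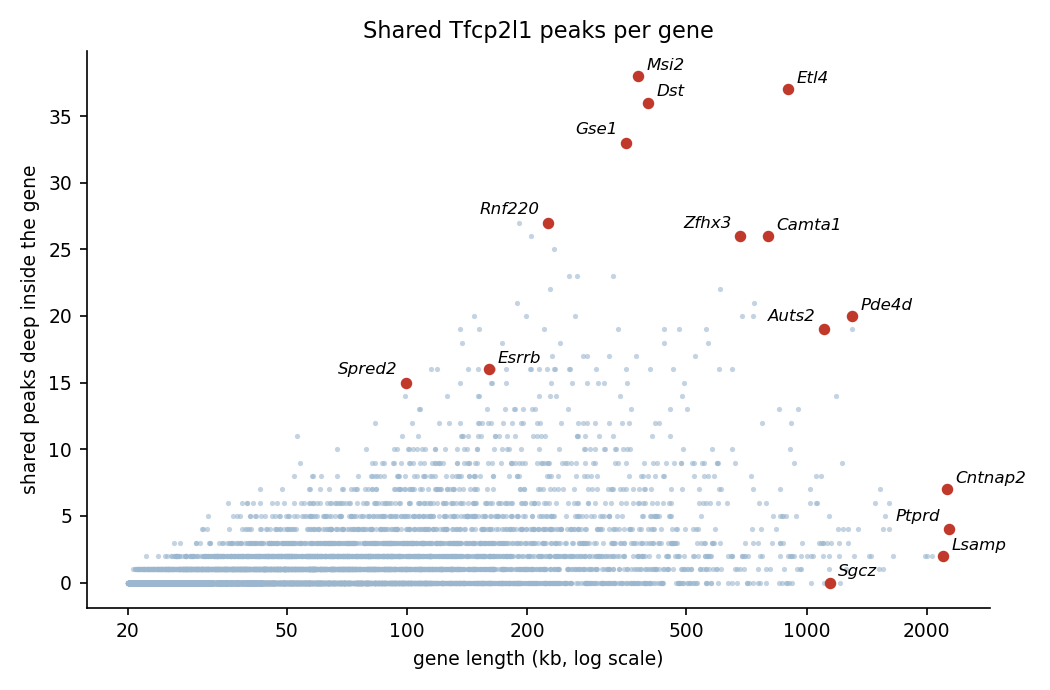
Number of members (vertical) against gene length in kb (log scale) for every autosomal gene with deep DNA, with some of the genes named in the text in red. Msi2 (38), Etl4 (37), Dst (36) and Gse1 (33) stand highest, and the longest genes hold few: Cntnap2 7, Ptprd 4 and Lsamp 2.

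The members of gene groups were counted in 19 lists and set beside the number expected if each gene held members at the rate of all genes of its length class. Among the factors of the pluripotency network, 11 of 15 genes with deep DNA held a member (73.3%, against 43.9% of all genes). These shares are not matched for length, nor are those of the lists below. Median deep DNA was 61.5 kb in the pluripotency genes and 28.9 kb over all genes. The pluripotency genes held 55 members, 2.25 times (1.69 to 2.93) the number expected. Esrrb led with 16 members, whose median enrichment was 28.4-fold and 17.7-fold. Etv5, an ETS factor downstream of FGF signalling, held 8, with 155.77-fold and 84.76-fold at the strongest, and Jarid2, a partner of Polycomb, also held 8. Tfcp2l1 itself held 5, found in each repeat alone as well, the strongest with 31.32-fold and 39.77-fold. Nr6a1 (the germ cell nuclear factor) and Mga (a Max partner) held none, with 1 peak each in repeat 2 alone.

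In the FGF and ERK list, the pathway that MEK belongs to, 15 of 23 genes held a member, with 80 members in all and 1.82 times (1.44 to 2.26) the expected number. The inhibitor Spred2 held 15, the kinase Rps6ka2 held 14 with up to 69.26-fold and 83.59-fold, and the receptor Fgfr1 held 7 (2 with ends of genes of any type). Etv5 held 8 and is counted in the pluripotency list as well, so the 2 ratios are not from wholly separate genes. The exchange factor Sos2 and the kinase Rps6ka5 had no deep peak in either repeat. In the Wnt and beta-catenin list 24 of 30 genes held 83 members (1.33 times, 1.06 to 1.65). Tcf7l1, the repressor at Wnt targets in these cells, held 16, the receptor Ror2 15, Tcf7l2 7, and Gsk3b, the kinase that CHIR99021 inhibits, held 6 with 99.52-fold and 54.37-fold at the strongest. With ends of genes of any type Tcf7l1 held 4. The corepressors Tle4 and Tle1 had no member, although Tle4 had 2 peaks in repeat 1 and 1 in repeat 2, and Tle1 had 1 in repeat 2. In the LIF and Stat3 list 10 of 15 genes held 21 members, 1.16 times the number expected with an interval of 0.719 to 1.77. None of these 21 lay over 50 kb from every end or had an FDR of 0 in both repeats. The receptor Lifr held 5 (up to 46.86-fold and 37.26-fold), the adaptors Gab1 and Grb2 4 each and the kinase Jak2 2, whereas Ptpn11 and Pias1 had no deep peak in either repeat.

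In the Hippo list 15 of 19 genes held 68 members (1.79 times, 1.39 to 2.26). These were led by the DNA-binding partners Tead1 with 14 and Tead4 with 7, the coactivator Yap1 with 7 and the upstream regulator Wwc2 with 7. The strongest regions of Yap1 (166.19-fold and 100.07-fold) and Tead4 (127.39-fold and 98.89-fold) stood well above that of Tead1 (45.9-fold and 38.46-fold), although Tead1 had more regions. Fat4 and Dchs1, an atypical cadherin pair upstream, had none. In the TGF-beta and BMP list 24 of 31 genes held 72 members (1.35 times, 1.06 to 1.71), among them 8 in the effector Smad3, 7 in the receptor Acvr1 and 6 in the corepressor Ski. With ends of genes of any type Smad3 held 3 and Wwc2 of the Hippo list also 3. Among members over 50 kb from every end the TGF-beta and BMP list stood at 0.797 times the number expected. Bmpr1a, a BMP receptor, held no member although repeat 2 alone had 3 peaks. In the Notch list 10 of 15 genes held 28 members (1.06 times, 0.701 to 1.53). Maml3 held 8, the receptor Notch2 6, and Rbpj, the DNA-binding effector, 3 (5 peaks in repeat 2, shared ones included).

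In the focal adhesion and actin list 31 of 36 genes held 290 members, 2.31 times (2.05 to 2.59) the number expected. The median gene held 5.5, against 0 over all genes, a comparison not matched for length. Median deep DNA was 172 kb in the genes of this list and 28.9 kb over all genes. Besides Dst, Myo10 and Tns3, Macf1, a spectraplakin like Dst, held 19 with up to 122.71-fold in repeat 1 (4 members with ends of genes of any type). Fmn2 and Myo5a held none, with 1 peak each in repeat 1 and 1 in repeat 2 for Fmn2. In the epithelial junction and polarity list 29 of 35 genes held 152 members (1.92 times, 1.63 to 2.25), with 22 in the junction scaffold Magi1, 17 in Shroom3, which constricts the cell apex, and 13 in Plekha7. Receptor-type phosphatases had 75 (1.24 times, 0.976 to 1.55), of which 20 lay in Ptprg. Ptprr had no deep peak in either repeat.

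Chromatin and developmental regulators stood above the expected number, and neural, channel and matrix genes below it. Chromatin regulators held 127 members (1.30 times, 1.08 to 1.54), with 16 in the BAF subunit Arid1b and up to 114.51-fold and 107.53-fold there. Hdac9 (870 kb) and Tet3 held none, with 1 peak each in repeat 1. The list of developmental transcription factors, in which Auts2 was also counted, held 257 (1.41 times, 1.24 to 1.59). Of these, 26 lay in Zfhx3, 19 in Auts2 and 18 in Tshz2, and none in Dach1, which had 1 peak in repeat 2. Synaptic adhesion and glutamate receptor genes held 115 members in 29 of 46 genes, 0.546 times (0.451 to 0.656) the number expected for their length. The list was not uniform: the kainate receptor gene Grik3 held 16 members, with up to 98.09-fold and 50.71-fold, and Grik4 held 12, whereas Cntn4 (1023 kb) and Grm7 (922 kb) held none and had 1 peak each in repeat 1. Potassium and calcium channel genes held 86 (0.469 times, 0.375 to 0.579), led by Cacna1a with 11. Kcnq1 held 5, but 1 of these reached 166.19-fold and 95.27-fold. Collagens and Adamts proteases held 52 (0.401 times, 0.299 to 0.526), led by Adamts9 with 9 (1 with ends of genes of any type).

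Cadherins and non-clustered protocadherins held 57 (0.691 times, 0.523 to 0.895), of which 8 lay in the 66.9 kb of Cdh1, the E-cadherin of embryonic stem cells, and 14 in the 1185 kb of Cdh13. Pcdh7 and Cdh8 had no deep peak in either repeat. Eph receptors, semaphorins and plexins held 78 (0.870 times, 0.688 to 1.09), of which 21 lay in Ephb2. Solute carriers held 225 (0.879 times, 0.768 to 1.00), led by Slc39a11, a zinc transporter gene, with 16. Common fragile site and giant genes held 135, 1.01 times (0.844 to 1.19) the number expected for their length, which was low. These genes, with a median of 1135 kb of deep DNA, are themselves a large part of the longest classes that set the expected number. A ratio near 1 is thus partly built in and says little about them. Their most occupied genes were Pde4d with 20, Cdh13 with 14 and Wwox with 12, and Csmd3 (1212 kb) held none, with 1 peak in repeat 1.

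**Figure D5:**
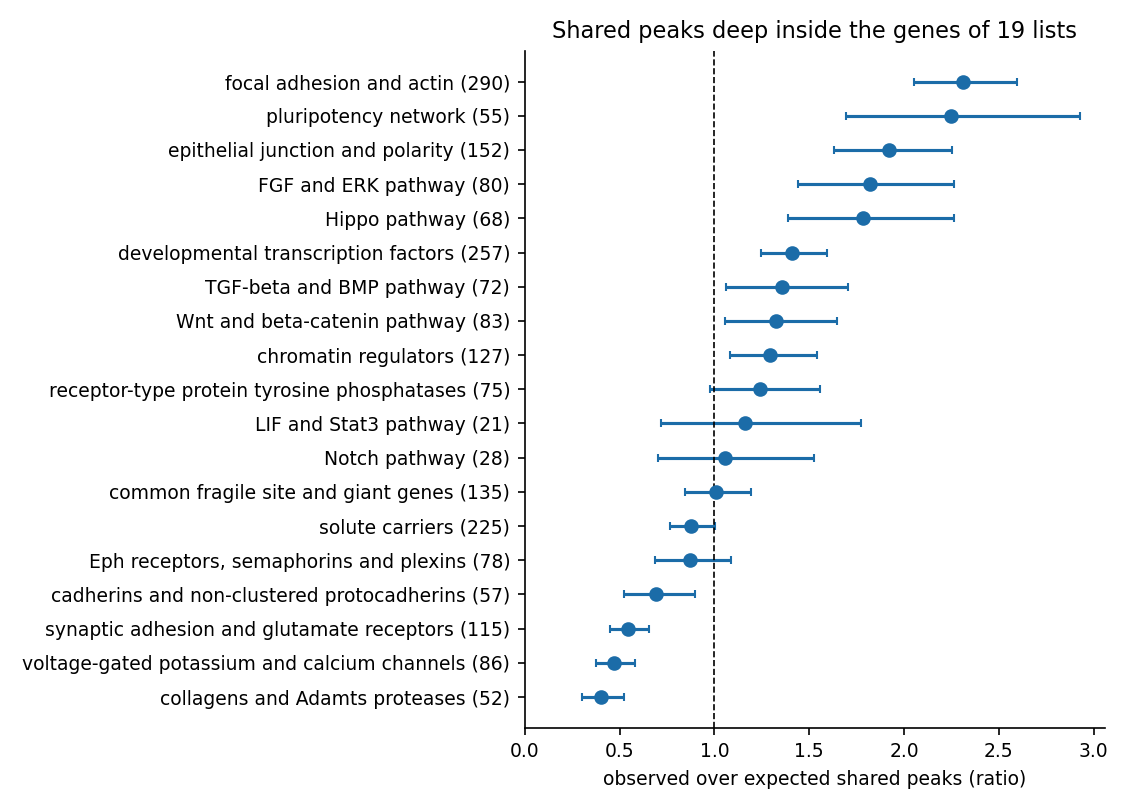
Observed over expected number of members (horizontal axis, ratio) for 19 gene lists, where the expected number comes from all genes of the same length class; bars are exact 95% Poisson intervals of the observed count, the dashed line marks 1, and brackets give the number of members. Focal adhesion and actin genes (2.31) and pluripotency genes (2.25) stand highest, and collagens and Adamts proteases (0.401) lowest.

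Some members sat at starts of transcripts inside their host genes. Off chromosome 18 the annotation held 1419 protein-coding starts within deep DNA. Within 1 kb of these starts lay 253 of 11901 members (2.13%), at 98.9 per Mb (87.1 to 112), against 17.3 per Mb (17.0 to 17.6) in the rest of deep DNA. The density near starts was 5.73 times that elsewhere, and 5.88 and 5.23 times in the repeats taken alone. The densities in this paragraph are not matched for gene length, and the part of gene length in these ratios was not tested. Of the 1419 starts, 268 (18.9%, 16.9 to 21.0%) had a member within 1 kb. Members near the 1731 starts of lncRNA genes in deep DNA numbered 160, at 51.4 per Mb (43.8 to 60.1), against 17.4 per Mb elsewhere. The greater part of members thus lay away from any annotated start.

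Members at internal protein-coding starts were not stronger than the rest in the median. They had medians of 14.98-fold and 11.4-fold, against 14.98-fold and 11.77-fold for the members elsewhere. Members near lncRNA starts had higher medians, 17.63-fold and 12.8-fold, against 14.98-fold and 11.77-fold away from them. The ratio of repeat 1 to repeat 2 enrichment had a median of 1.44 near protein-coding starts and 1.29 elsewhere, and that of depth-scaled tags 1.32 near starts and 1.17 elsewhere. The value near internal starts was thus like that of peaks at gene ends, 1.44 by enrichment. The strongest, named after their values were seen, were in Dhx32 (a helicase gene; 167.16-fold and 83.75-fold), Sh3tc1 (138.77-fold and 72.6-fold), Slc44a2 (a choline transporter gene; 139.73-fold and 72.21-fold) and Phldb2 (130.44-fold and 59.26-fold). In each of these 4, repeat 1 was well above repeat 2. Their summits lay 21 to 145 bp from the start.

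The motif shown in the sequences above was more frequent in start windows that held a member. Of 131 windows with a member's summit, 89 of protein-coding genes and 42 of lncRNA genes, 22 contained it (16.8%, 10.8 to 24.3%). Against this, it was found in 121 of 2609 windows in deep DNA that no peak touched (4.64%, 3.86 to 5.52%) and in 8.52% of all 31396 autosomal windows. The interval of the windows with a member lay above both. With all deep peaks of repeat 1, shared ones included, 14.5% of the windows with a summit contained it (9.58 to 20.6%). With all those of repeat 2 the share was 13.7% (8.35 to 20.8%), an interval that includes the share of all windows. Among the 39 windows whose member had at least 30-fold enrichment in repeat 1, 14 contained it (35.9%, 21.2 to 52.8%). These 14 were most of the 22, so the excess over all windows lay largely in windows with strongly enriched members. Windows with the summit of another shared peak contained the motif in 24.0% of cases (22.2 to 25.9%), an interval that overlaps that of the windows with a member. The combination of CCAG with CCAG alone was present in 7.63% of the windows with a member (3.72 to 13.6%), against 3.48% of all windows. In the 21 members with a motif the nearest motif centre lay a median of 68.5 bp from the summit, and within 50 bp in 5 of them. One of these windows, at 5430435K18Rik inside Stard13, held 10 matches in a tandem repeat. Windows share genes and sequence and a match is a description of letters.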

How the data were processed

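The authors deposited 1 peak list per repeat, called on single repeats. Per the file headers, MACS 1.4.1 compared each ChIP library with its input at a p-value cutoff of 1e-05. The deposited count of a peak is its whole number of ChIP tags, its deposited score is the -log10 p-value multiplied by 10, the deposited fold enrichment is a ratio to local background, and FDR is in percent. The submitters' processing notes name CASAVA 1.8.2 and the mm9 build. For the aligner, a name was not given in the sources used here. Positions are those of GRCm38: 14.3% and 13.2% of summits lay within 1 kb of a gene end of that build, against 4.80% and 4.78% after moving them by 500 kb.

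Genes came from RefSeq (GRCm38.p6, 21887 protein-coding genes, without exons), and strands, internal starts and sequence from its start windows (250 bases before and 50 after), which lack chromosome 18. Introns and exons were not told apart. Densities are peaks over deep DNA, with Poisson intervals. Expected numbers of a list use the density of all genes in 6 length classes. With 2 libraries and no varied condition, no test was made. Members, lists and the motif were chosen with earlier results of these data known. Genes named were, by rule, those of the 10 best members by mean rank, the 10 with most members, the 10 densest, the 5 longest, the 5 largest without a peak, up to 4 leading and 2 empty genes per list, and the 5 farthest and nearest members. Not all are printed, and 1 of the 20 lists computed is not reported here. Of the listed symbols, 1 was not in the annotation. Calculations used Python 3.11.15 with numpy 2.4.6, pandas 2.3.3 and scipy 1.17.1, and were tested on simulated data. Alternatives were stricter limits, other distances and overlaps, and each repeat alone.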

Additional observations from a re-analysis of the deposited data

How the results depend on the processing

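Of 130 values recomputed under other settings, 80 stayed within the spread between repeats or within 1.5 times for counts, and 50 moved. With an FDR of 0 in both repeats, 2058 members in 1420 host genes remained, at 2.93 per Mb, the enrichment of members over other shared peaks was 1 (0.969 in the main reading of repeat 1), the start side to end side ratio was 0.990 (1.08) and 215 list genes held a member (534). A fold of at least 10 in both repeats left 6763 members at 9.63 per Mb, and a score of at least 100 left 8170 at 11.6 per Mb and a repeat 2 enrichment ratio of 1.02 (1). The recurrence of deep repeat 1 peaks was 97.1% for those with an FDR of 0 and 92.9% for those of at least 10-fold. The ratio of density in the shortest over the longest genes, 8.95, was 9.31 and 9.25 under these limits. A distance of over 5 kb gave 19.3 members per Mb, a length ratio of 9.26 and a side ratio of 1.12. A distance of over 20 kb gave 15.4 per Mb, 2646 host genes, a length ratio of 9.42, a side ratio of 1.04 and an internal start ratio of 6.41 (5.73). A distance of over 50 kb gave 3894 members at 11.3 per Mb, 1173 host genes, 259 list genes, a side ratio of 0.951 and an internal start ratio of 9.39, and it leaves no genes of 20 to 50 kb, so no length ratio. Summits within 100 bp in place of any overlap gave 15.9 per Mb, a length ratio of 9.47, an internal start ratio of 5.26, a repeat 2 enrichment ratio of 0.974 and a recurrence of 69.6%. Ends of genes of any type gave an internal start ratio of 6.25. Scores in place of fold gave enrichment ratios of 0.922 and 0.977, and depth-scaled tags in place of fold gave a rank correlation of 0.844 (0.816).

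With each replicate left out in turn there were 14738 to 16022 deep peaks at 21.0 to 22.8 per Mb, a length ratio of 7.80 to 8.12, internal start ratios of 5.23 to 5.88 and side ratios of 1.05 to 1.08. The enrichment ratio was 1 in repeat 1 alone and 0.962 in repeat 2 alone. Alternatives added after seeing the data were windows of 500 bp (an internal start ratio of 7.90) and 2000 bp (4.18), genes alone in their territory (a length ratio of 8.40), CCAG with CCAG alone (7.63% of windows with a member), the motif in each repeat alone, the lists without genes over 1000 kb, and the longest genes without Etl4. The observed over expected ratios of the 20 lists computed stayed on the same side of 1 in 252 of 260 recomputed values. LIF and Stat3 (0 to 1.32), TGF-beta and BMP (0.797 to 1.68), Notch (0.886 to 1.37) and giant genes (0.996 to 1.22) crossed it. The FGF and ERK ratio ran over 1.72 to 2.99 and that of cadherins over 0.372 to 0.761. For 34 leading genes, 331 of 442 recomputed counts of members stayed within 1.5 times. The cause of these changes was not tested. The planned motif search around all summits was not run, for want of a genome sequence here. No paired analysis was possible because the ChIP libraries form 1 group and no result comes from a test. Weak regions limit the precision: members have a median of 56 tags in each repeat.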
